A study of Mus musculus with 19 samples.

Results

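Immediate early genes and heat shock genes were described as a set of 35 listed genes, 26 immediate early genes and 9 heat shock proteins or chaperones, chosen by name and sorted into 5 role classes. A listed gene counted as measured where at least 1 exon-level probe set carried its symbol, or an older synonym, and no other symbol. That held for 31 of the 35 genes, 25 immediate early and 6 heat shock, of 15781 genes measured in all. Fosb, Hspa1b, Hspa8 and Hspb1 had no probe set of their own in the annotation used here and have no value. Ppp1r15a was annotated under its older name Myd116.

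RNA of myeloid progenitors sorted from mouse bone marrow was measured on 19 exon arrays. Granulocyte-monocyte progenitors (GMP) were taken from PR+/- Dnmt3a-/- mice (4 arrays), PR+/- mice (2), Dnmt3a-/- mice (3) and wild-type mice (4), and common myeloid progenitors (CMP), which can give rise to GMP, from Dnmt3a-/- mice (3) and wild-type mice (3). PR was read as the PML-RARA fusion of acute promyelocytic leukaemia from the title of the series, which concerns the need of that leukaemia for Dnmt3a, an enzyme of de novo DNA methylation. The strain is given as C57Bl/6J for the wild-type and Dnmt3a-/- mice and is not given for the PR+/- mice. Ages, the promoter behind the fusion, the way Dnmt3a was removed and the number of animals behind an array are not given in the sources used here. Values below are log2 levels, the mean log2 intensity of a gene's own probe sets on 1 array, so that a difference of 1 is a 2-fold change in signal.

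Immediate early genes are switched on within minutes of a stimulus, without new protein synthesis, by transcription factors that are already present and are activated by kinase cascades. Their products are mostly transcription factors, followed by phosphatases, RNA decay factors and inhibitors that shut the response off again, and both transcripts and proteins are short lived. Heat shock genes answer damaged proteins through HSF1 in the cytosol, or through the unfolded protein response in the endoplasmic reticulum, and their products refold proteins or hold them in solution. In blood cells both programmes are known to start during tissue dissociation, warming and sorting, and immediate early genes also respond to growth factors and cytokines.

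Promoter sequence from RefSeq (assembly GRCm38.p6) is shown for 4 members with distinct patterns below: Fos and Nr4a1, which moved widely between arrays of the same group, the stress chaperone gene Hspa1a, and Hspa5, whose spread was among the lowest. Each window of 300 bases runs 5′ to 3′ on the strand of the gene, from 250 bases before the annotated start to 50 bases after it. Fos lies at chr12:85473640-85473939 on the plus strand, Nr4a1 at chr15:101266596-101266895 on the plus strand, Hspa1a at chr17:34972107-34972406 on the minus strand and Hspa5 at chr2:34771840-34772139 on the plus strand. Capitals mark matches on either strand to TGACG (the core of the cyclic AMP response element, CGTCA on the other strand), TGANTCA (AP-1), GAANNTTC or TTCNNGAA (a pair of heat shock element units), TATAAA, the NF-kB motif and the ER stress element.
Fos: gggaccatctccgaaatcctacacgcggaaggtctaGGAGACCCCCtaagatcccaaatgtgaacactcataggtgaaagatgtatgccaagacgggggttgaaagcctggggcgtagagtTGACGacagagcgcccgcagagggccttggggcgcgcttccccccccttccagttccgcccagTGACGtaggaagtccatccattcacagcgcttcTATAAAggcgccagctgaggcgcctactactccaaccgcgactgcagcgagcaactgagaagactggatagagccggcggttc
Nr4a1: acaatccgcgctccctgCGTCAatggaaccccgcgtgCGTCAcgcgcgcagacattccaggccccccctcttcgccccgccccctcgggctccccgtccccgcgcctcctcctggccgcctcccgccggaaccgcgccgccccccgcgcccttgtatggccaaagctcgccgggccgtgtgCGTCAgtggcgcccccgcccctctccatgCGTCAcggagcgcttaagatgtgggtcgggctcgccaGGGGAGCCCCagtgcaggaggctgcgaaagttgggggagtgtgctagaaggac
Hspa1a: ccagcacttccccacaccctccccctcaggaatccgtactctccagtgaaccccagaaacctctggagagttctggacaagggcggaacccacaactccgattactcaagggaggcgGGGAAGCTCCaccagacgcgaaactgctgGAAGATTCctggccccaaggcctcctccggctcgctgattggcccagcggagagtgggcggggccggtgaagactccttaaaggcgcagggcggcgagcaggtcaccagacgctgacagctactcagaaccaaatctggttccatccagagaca
Hspa5: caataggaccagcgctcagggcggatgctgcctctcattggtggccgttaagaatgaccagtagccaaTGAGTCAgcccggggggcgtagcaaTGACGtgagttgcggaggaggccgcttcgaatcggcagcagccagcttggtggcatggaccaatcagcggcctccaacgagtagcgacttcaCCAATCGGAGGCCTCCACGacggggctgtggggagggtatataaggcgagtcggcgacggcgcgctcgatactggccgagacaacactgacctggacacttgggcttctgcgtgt

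In these windows TGACG occurred at -129 and -66 in Fos, counted from the annotated start, and TATAAA at -33. Nr4a1 held TGACG at -233, -213, -69 and -40, each time on the other strand. Hspa1a held a heat shock element match at -104, and Hspa5 held the ER stress element at -65. Windows were given for 21 immediate early and 4 heat shock members, among 32851 windows in all. A member counted where any of its windows held a match, while the shares of all windows count each window singly. A gene with several windows has more chances of a match, so these are unlike measures. TGACG was found in 12 of the 21 immediate early members and in 2 of the 4 heat shock members, and in 20.8% of all windows. The full element TGACGTCA, which contains TGACG, was found in Btg2, Dusp1 and Ppp1r15a (1.79% of all windows). Egr2 and Zfp36 held a CArG box, the site of serum response factor (1.63% of all windows). TATAAA was present in 6 of 21 immediate early members and in 0 of 4 heat shock members (13.6% of all windows). The NF-kB motif was present in 5 of 21 and in Hspa1a (8.46%). Heat shock element matches lay in Egr2 and Jun and in the heat shock genes Hspa1a and Hsph1 (15.1%). TGANTCA was found in Hspa5 alone among the members (7.81%), and so was the ER stress element (0.119%). These are matches of letters in a window, described without a test.

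The targeted gene followed the labels: Dnmt3a lay between 5.82 and 6.49 on the 10 arrays labelled Dnmt3a-/- and between 7.07 and 7.65 on the other 9. Fcgr3, a gene of the GMP sort, lay between 8.60 and 10.12 on GMP arrays and between 5.72 and 7.80 on CMP arrays. Wild-type CMP replicate 1 was the lowest array, with 5.72 against 7.80 and 7.79 on replicates 2 and 3. Mpo, a granule enzyme of both populations, lay between 11.59 and 12.97 throughout. Array medians lay between 53.0 and 56.8 in intensity. The Y-linked genes Eif2s3y and Kdm5d were low on all 6 Dnmt3a-/- arrays without PR, on PR+/- Dnmt3a-/- replicate 2, on wild-type GMP replicate 4 and on wild-type CMP replicate 3. The title numbers of the wild-type arrays fall in runs: 3 arrays have numbers under 22000 (GMP replicates 1 and 2 and CMP replicate 1), and the labels do not say what the numbers stand for. Those of the Dnmt3a-/- arrays without PR run in adjacent pairs of 1 CMP and 1 GMP array. They are all higher than every wild-type number, so loss of Dnmt3a and whatever the numbers stand for cannot be told apart. The 3 wild-type arrays under 22000 and PR+/- Dnmt3a-/- replicates 1 and 2 stood apart from the rest of their groups in the immediate early genes. Results that rest on these arrays are given with and without them. Arrays with PR are titled in a different way from those without it, so whatever else separates those sets of arrays and PR itself cannot be told apart.

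The immediate early genes differed more between arrays of 1 group than most genes on the array. The pooled within-group SD, taken over 19 arrays in 6 groups, had a median of 0.93 over the 25 immediate early genes, 0.40 over the 6 heat shock genes and 0.24 over all 15781 genes. Of the 31 members, 25 lay above 0.45, the 90th percentile of all genes (10% of all genes by construction): 22 of 25 immediate early and 3 of 6 heat shock genes. Above the 99th percentile, 0.87, lay 14 members, all immediate early. Members made up 4 of the 20 genes and 10 of the 50 genes with the highest within-group SD. Nr4a1 ranked 4 of all genes with an SD of 1.97, and Egr2 ranked 9 with 1.68. At the other end were Hspa5 with 0.18, Myc with 0.23, Socs3 with 0.25 and Cryab with 0.25, near or under the median of all genes. With the 5 arrays named above left out, an alternative chosen after seeing the data, 4 of the 31 members lay above the 90th percentile. Those arrays were picked for their levels of these same genes, so a smaller spread follows from the choice.

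**Figure D1:**
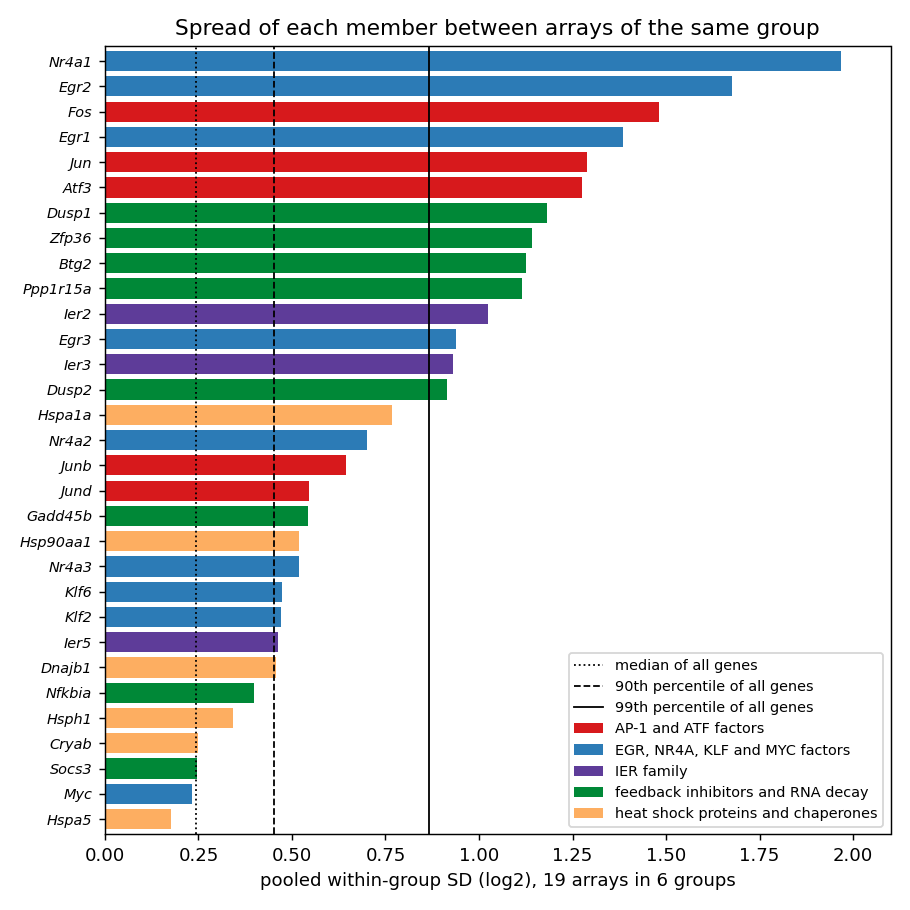
Pooled within-group SD of each measured member in log2 units (19 arrays in 6 groups), coloured by role class, with the median, the 90th percentile and the 99th percentile of all 15781 genes as vertical lines. The 14 members to the right of the solid line at 0.87 are all immediate early genes, while Hspa5, Myc, Socs3 and Cryab lie near or under the dotted median of 0.24.

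Among the AP-1 and ATF factors, Fos and Jun, which pair to form the AP-1 transcription factor, had the widest spread. Fos stood at 9.70, 9.80, 5.67 and 5.36 on the PR+/- Dnmt3a-/- GMP arrays, against 6.50 and 5.62 on the PR+/- GMP arrays. It had 7.41, 7.45 and 7.35 on Dnmt3a-/- GMP, against 8.75, 9.11, 6.81 and 6.60 on wild-type GMP. On CMP arrays it had 7.84, 7.71 and 7.86 in Dnmt3a-/-, against 9.71, 6.83 and 7.05 in wild type. The 3 Dnmt3a-/- arrays of either population thus lay close together, inside a wild-type range that spanned 2.51 in GMP and 2.87 in CMP, and the PR+/- Dnmt3a-/- arrays split into a high pair and a low pair.

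Jun had 10.71, 10.38, 6.51 and 7.23 on PR+/- Dnmt3a-/- GMP, against 7.30 and 6.76 on PR+/- GMP. Its levels were 9.19, 8.84 and 8.28 on Dnmt3a-/- GMP, against 9.27, 9.67, 7.72 and 7.38 on wild-type GMP. For CMP they were 9.79, 9.49 and 9.30 in Dnmt3a-/-, against 10.58, 8.49 and 8.24 in wild type. The high arrays were those of Fos. All 20 probe sets of Jun and all 6 of Fos placed wild-type CMP replicate 1 above replicates 2 and 3, wild-type GMP replicates 1 and 2 above 3 and 4, and PR+/- Dnmt3a-/- replicates 1 and 2 above 3 and 4. Atf3, a stress-induced factor of the ATF family, had a within-group SD of 1.27, Junb 0.64 and Jund 0.55. Atf3 differed from Fos in wild-type GMP, where replicate 1 alone was high, with 7.56 against 5.27, 4.97 and 4.92 on replicates 2 to 4.

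The widest spread of all members was in the EGR and NR4A families, zinc finger factors and orphan nuclear receptors induced by growth factor and antigen receptor signals. Nr4a1 had 9.19, 8.37, 4.64 and 4.70 on PR+/- Dnmt3a-/- GMP, against 4.78 and 4.50 on PR+/- GMP. It stood at 5.09, 4.92 and 5.45 on Dnmt3a-/- GMP, against 7.74, 7.83, 4.30 and 4.82 on wild-type GMP. In CMP it stood at 5.72, 5.95 and 5.45 in Dnmt3a-/-, against 10.49, 4.75 and 4.66 in wild type. Wild-type CMP replicate 1 stood far above both other arrays of its group, and all 12 probe sets of the gene placed it highest.

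Egr2 had 9.04, 8.70, 4.42 and 4.52 on PR+/- Dnmt3a-/- GMP, against 4.66 and 5.06 on PR+/- GMP. Its levels were 4.92, 4.29 and 4.97 on Dnmt3a-/- GMP, against 6.63, 7.10, 5.16 and 4.94 on wild-type GMP. They were 4.73, 4.58 and 5.15 on Dnmt3a-/- CMP, against 8.67, 4.33 and 4.16 on wild-type CMP. Egr2 thus split in the same arrays as Nr4a1. Egr1, with an SD of 1.39, followed the same order, with 9.19 and 8.97 on the high pair of PR+/- Dnmt3a-/- arrays and 5.52 and 5.51 on the low pair. Egr3 (0.94), Nr4a2 (0.70) and Nr4a3 (0.52) had smaller spreads and mean levels between 4.22 and 5.01, with wild-type CMP replicate 1 the highest array in each. Klf6 (0.47) and Klf2 (0.47), zinc finger factors of the Krüppel-like family, varied less again. Myc, a growth regulator with a mean level of 11.01 and therefore the brightest member, varied little, between 10.34 and 11.52 over all arrays.

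The IER family holds small nuclear or membrane proteins first found as products of early response genes. Ier2 had 10.35, 9.70, 7.56 and 7.40 on PR+/- Dnmt3a-/- GMP, against 8.004 and 7.77 on PR+/- GMP. On Dnmt3a-/- GMP it had 8.26, 7.87 and 8.07, against 8.40, 8.13, 7.09 and 6.96 on wild-type GMP. On Dnmt3a-/- CMP it had 8.73, 8.15 and 7.93, against 10.16, 7.31 and 7.61 on wild-type CMP. Ier2 kept the split of Fos in all 3 probe sets.

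Ier3, a regulator of cell survival, had 9.74, 9.59, 7.91 and 8.46 on PR+/- Dnmt3a-/- GMP, against 8.25 and 7.82 on PR+/- GMP. It had 7.85, 7.92 and 7.92 on Dnmt3a-/- GMP, against 8.56, 8.85, 7.16 and 6.40 on wild-type GMP. In CMP it had 7.96, 7.98 and 7.54 in Dnmt3a-/-, against 9.89, 7.42 and 7.12 in wild type. The 3 Dnmt3a-/- GMP arrays lay close together, in the gap between the high and the low wild-type GMP arrays. Ier5 was dimmer and had an SD of 0.46, with 6.20 on wild-type GMP replicate 1 and 4.86 to 5.09 on replicates 2 to 4.

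Among the 8 genes that limit the response, Dusp1, Dusp2, Zfp36, Btg2 and Ppp1r15a were high on the same arrays as the factors, and Socs3, Gadd45b and Nfkbia were not in every group. Dusp1, a phosphatase that inactivates MAP kinases, had 10.06, 9.94, 7.01 and 7.04 on PR+/- Dnmt3a-/- GMP, against 7.38 and 7.03 on PR+/- GMP. It had 8.24, 8.24 and 7.48 on Dnmt3a-/- GMP, against 9.21, 9.19, 7.44 and 6.75 on wild-type GMP. On Dnmt3a-/- CMP it had 9.28, 8.73 and 9.05, against 10.20, 7.82 and 7.72 on wild-type CMP. All 6 probe sets showed both wild-type splits and the split of the PR+/- Dnmt3a-/- arrays.

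Zfp36, which binds AU-rich RNA and speeds its decay, had 9.17, 9.21, 6.45 and 6.96 on PR+/- Dnmt3a-/- GMP, against 6.88 and 6.57 on PR+/- GMP. It had 8.07, 8.04 and 6.98 on Dnmt3a-/- GMP, against 8.88, 9.46, 6.88 and 6.91 on wild-type GMP. For Dnmt3a-/- CMP the levels were 8.69, 8.65 and 8.41, against 9.91, 7.38 and 7.29 on wild-type CMP. Dnmt3a-/- GMP replicate 3 was near the low wild-type arrays for Zfp36, and likewise for Dusp1 and Ppp1r15a. Btg2, an antiproliferative RNA decay factor, had an SD of 1.13. Ppp1r15a, which restarts translation after stress, had 1.11, and the phosphatase Dusp2 had 0.92. The NF-kB inhibitor Nfkbia (0.40) and the cytokine signalling inhibitor Socs3 (0.25) varied less, and Socs3 was dim, between 3.45 and 4.79 on all arrays.

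**Figure D2:**
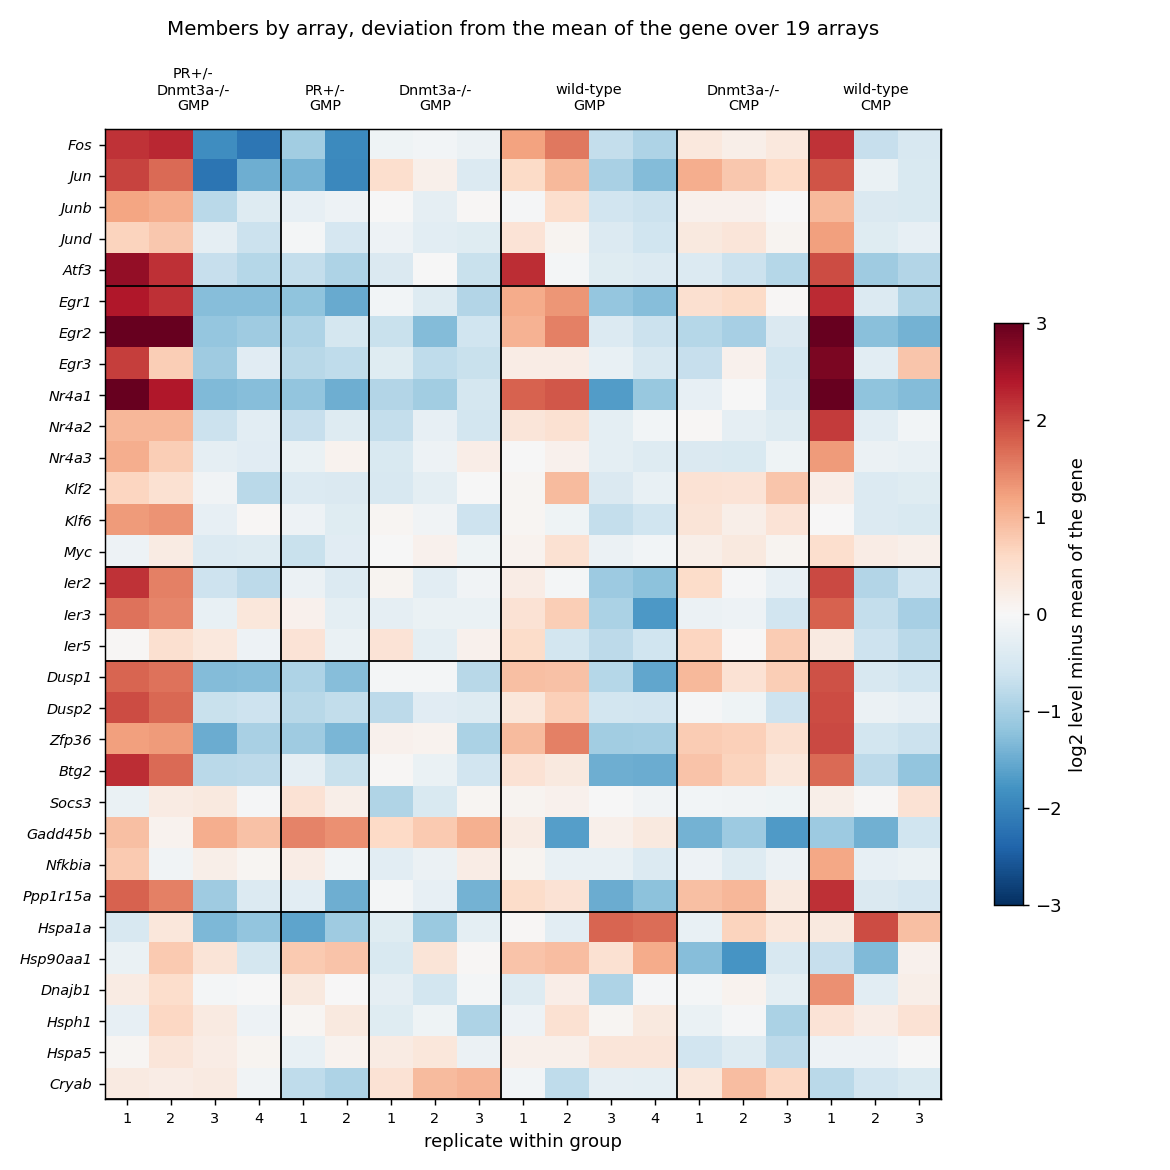
Log2 level of each measured member on each of the 19 arrays minus its mean over all arrays, with arrays in columns by group and genes in rows by role class (black lines divide both; colours stop at 3 either way). Of the 25 immediate early genes, 23 and 24 are above their own mean (red) on PR+/- Dnmt3a-/- replicates 1 and 2, 23 and 19 on wild-type GMP replicates 1 and 2 and 24 on wild-type CMP replicate 1. The heat shock rows at the bottom do not follow them as a set, though Hspa1a does in PR+/- Dnmt3a-/- GMP and Dnajb1 in wild-type CMP.

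The same few arrays were high for nearly all immediate early genes. PR+/- Dnmt3a-/- replicates 1 and 2 lay above replicates 3 and 4 and above both PR+/- arrays for 21 of 25 immediate early genes and, of the heat shock genes, for Hspa1a (12.4% of all genes). The exceptions were Ier5, Socs3, Gadd45b and Nfkbia. Wild-type GMP replicates 1 and 2 lay above replicates 3 and 4 for 24 of 25 immediate early genes, all but Gadd45b, and for 0 of 6 heat shock genes (19.7% of all genes). Wild-type CMP replicate 1 was the highest of its group for 23 of 25 immediate early genes, all but Socs3 and Gadd45b, and for 1 heat shock gene, Dnajb1 (32.9% of all genes). Its median deviation from the mean of both other arrays was 2.30 over the immediate early genes, -0.082 over the heat shock genes and -0.080 over all genes. These counts describe arrays picked out after their levels were seen, without a test.

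For part of the immediate early genes, the Dnmt3a-/- arrays without PR lay between the high and the low wild-type arrays. All 3 Dnmt3a-/- CMP arrays were below wild-type CMP replicate 1 and above replicates 2 and 3 for 14 of 25 immediate early genes and 0 of 6 heat shock genes (3.61% of all genes). Fos, Jun, Egr1, Nr4a1, Dusp1 and Btg2 were among them. All 3 Dnmt3a-/- GMP arrays lay between the wild-type GMP pairs for 9 of 25, Fos, Jun, Jund, Egr1, Nr4a1, Ier3, Dusp1, Zfp36 and Btg2, and for 0 of 6 heat shock genes (0.665% of all genes). The mean level over the 25 immediate early genes was 6.54 to 6.67 on Dnmt3a-/- GMP arrays, against 7.43, 7.36, 6.20 and 6.13 on wild-type GMP replicates 1 to 4. For CMP it was 6.82 to 7.01 in Dnmt3a-/-, against 8.43, 6.34 and 6.38 in wild type. In the PR+/- background it was 8.39, 8.14, 6.20 and 6.27 on PR+/- Dnmt3a-/- arrays, against 6.45 and 6.23 on PR+/- arrays.

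**Figure D3:**
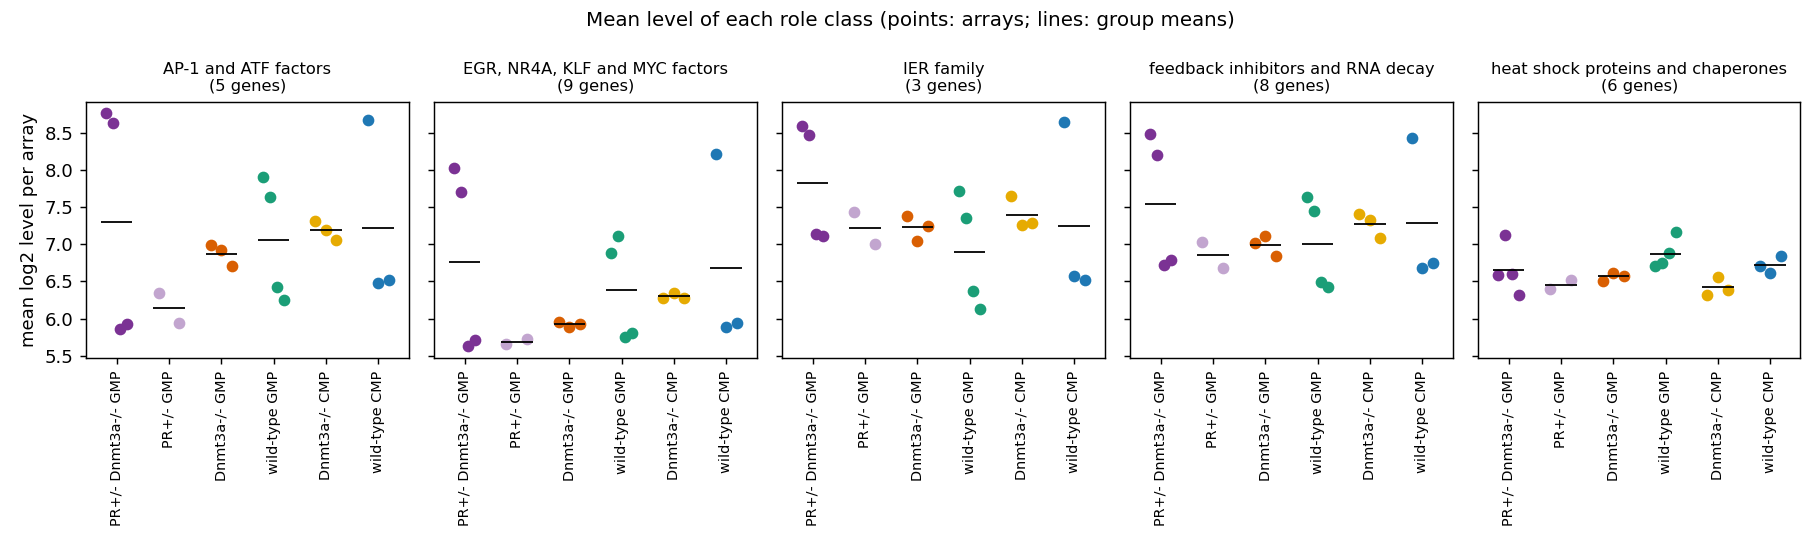
Mean log2 level of the measured members of each of the 5 role classes on each array (points) with the mean of each group (lines). In the 4 immediate early classes PR+/- Dnmt3a-/- replicates 1 and 2, wild-type GMP replicates 1 and 2 and wild-type CMP replicate 1 lie above the rest of their groups. The mean over the 6 heat shock genes stays between 6.31 and 7.16, a range that single genes do not keep to.

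Related genes outside the set moved with these arrays to different degrees. The 15 measured NF-kB target and inflammatory genes averaged 6.66 and 6.45 on PR+/- Dnmt3a-/- replicates 1 and 2, against 5.36 to 5.50 on the low PR+/- Dnmt3a-/- pair and the PR+/- arrays. They averaged 6.36 on wild-type CMP replicate 1, against 5.09 and 5.20 on replicates 2 and 3. Of these 15 genes, 9 lay above the 90th percentile of within-group SD and 5 above the 99th, led by the chemokine genes Ccl3 (2.06) and Ccl4 (1.99) and the prostaglandin synthase gene Ptgs2 (1.71). Of 21 other primary response genes, 7 lay above the 90th percentile and 1, Trib1 (0.99), above the 99th. The 13 other chaperone genes linked to HSF1 counted 1 above the 90th percentile, the 18 genes of the ER and integrated stress response 3, and the 16 upstream kinases and factors 0, with 0 above the 99th in these 3 lists.

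Markers of other cell types also differed between the high and the low arrays. The 8 neutrophil markers averaged 9.32 and 9.41 on PR+/- Dnmt3a-/- replicates 1 and 2, against 9.87 and 9.99 on replicates 3 and 4, and the 4 eosinophil markers 6.32 and 6.05, against 7.09 and 7.45. The neutrophil markers went the other way in wild-type GMP, with 9.56 and 9.46 on replicates 1 and 2, against 8.91 and 8.97 on replicates 3 and 4. On wild-type GMP replicates 1 and 2 the eosinophil markers averaged 5.70 and 5.43, against 6.61 and 6.77 on replicates 3 and 4. On wild-type CMP replicate 1 the 6 measured erythroid markers averaged 7.59, against 6.48 and 6.30 on replicates 2 and 3. The 4 measured stem and lymphoid genes averaged 6.12 there, against 5.07 and 5.01, and the 5 measured B cell markers 6.74, against 5.09 and 5.13. The dimmest of these markers had mean levels over all arrays of 7.62 (Mmp8, neutrophil), 2.80 (Il5ra, eosinophil), 5.05 (Add2, erythroid), 3.80 (Ly6a, stem) and 3.41 (Ms4a1, B cell). The 7 measured genes of CMP and GMP sort and identity (the dimmest, Fcgr2b, at 6.20) were lower on wild-type CMP replicate 1. They averaged 8.46 there, against 8.96 on replicates 2 and 3. The part of all these markers in the immediate early levels was not tested. In sorted bulk samples, fewer cells of a type and less RNA per cell cannot be told apart.

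The question of whether the members changed with loss of Dnmt3a was first asked in cells without PR. In those cells the genotypes also differ in their range of title numbers, which cannot be told apart from loss of Dnmt3a. Only heat shock genes passed the test there, Cryab and Hsph1, and 0 of 25 immediate early genes did. Fos, for example, differed by -0.062 ± 0.73 (SE) between Dnmt3a-/- and wild-type CMP (limma adjusted p = 0.984) and by -0.41 ± 0.68 between the GMP groups (limma adjusted p = 0.763), with 95% intervals of -1.63 to 1.505 and -1.88 to 1.05. At an unadjusted p under 0.05, the immediate early genes counted 4 of 25 in CMP and 2 of 25 in GMP, against 13.7% and 18.9% of all genes. The median difference over the 25 immediate early genes was -0.089 in CMP and -0.16 in GMP, and over all genes -0.044 and -0.066.

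The picture depended on the 3 wild-type arrays with title numbers under 22000. With them left out, 8 of 31 members were called in CMP, Btg2, Cryab, Dusp1, Fos, Ier5, Jun, Klf2 and Nr4a1, all higher in Dnmt3a-/- (2.85% of all genes called). In GMP 5 of 31 were called, with Btg2, Cryab, Fos and Ier3 higher and Hspa1a lower in Dnmt3a-/- (1.41% of all genes). On the mean of CMP and GMP it was 17 of 31, with Hspa1a the only one lower (7.99% of all genes). Without those arrays Fos was higher in Dnmt3a-/- by 0.86 ± 0.13 in CMP (limma adjusted p = 0.00993) and by 0.70 ± 0.13 in GMP (limma adjusted p = 0.0342). The arrays left out were the highest of their groups for nearly all immediate early genes, so a higher level in Dnmt3a-/- follows in part from which arrays were left out, and wild type then rests on 2 arrays for each population.

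**Figure D4:**
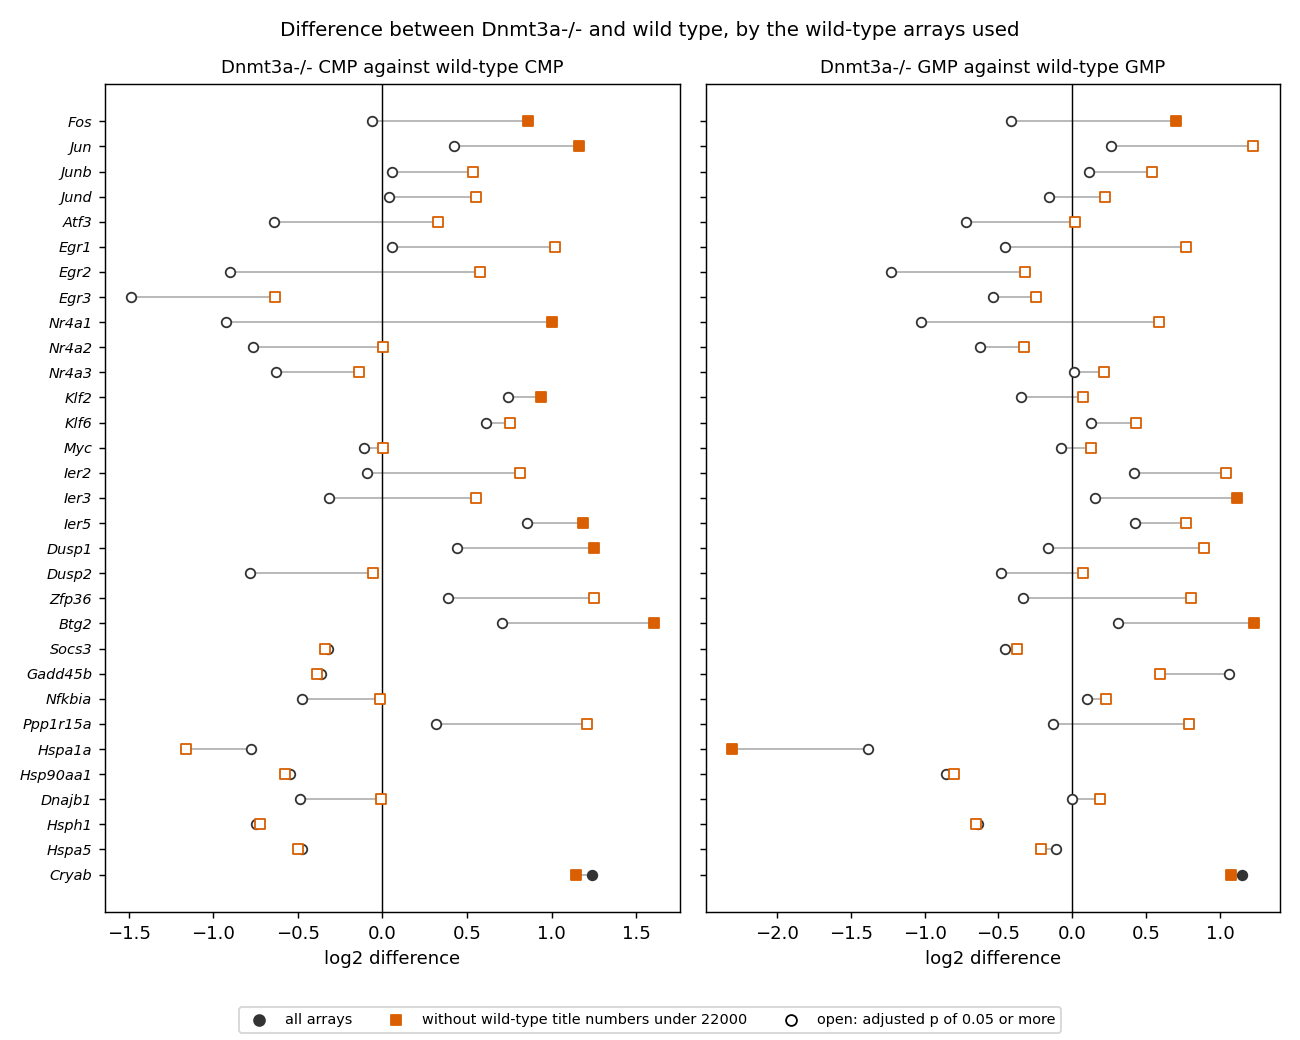
Log2 difference of each measured member between Dnmt3a-/- and wild type in CMP (left) and GMP (right), with all arrays (circles) and without the 3 wild-type arrays with title numbers under 22000 (squares); filled symbols have a limma adjusted p under 0.05. Most immediate early genes shift to the right when the 3 arrays are left out (Gadd45b does not in either population, nor Socs3 in CMP), Hspa1a shifts to the left, and Cryab stays near 1.1 to 1.2.

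Cryab, which encodes the small heat shock protein alpha-B crystallin, was higher without Dnmt3a in both populations. It had 6.39, 6.90 and 6.97 on Dnmt3a-/- GMP, against 5.87, 5.19, 5.69 and 5.66 on wild-type GMP. In CMP it had 6.29, 6.89 and 6.58 in Dnmt3a-/-, against 5.16, 5.37 and 5.51 in wild type. The groups did not overlap in either population. Cryab rose by 1.15 ± 0.20 (SE) in GMP (2.22-fold, limma adjusted p = 0.0151), where it was the 1 member called of 31 (1.33% of all genes called). It rose by 1.24 ± 0.21 in CMP (2.36-fold, limma adjusted p = 0.0152), again as 1 of 31 (1.28% of all genes). On the mean of both populations it rose by 1.19 ± 0.15 (limma adjusted p = 7.75e-04), and 2 of 31 members were called (5.75% of all genes).

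Of the 7 probe sets of Cryab, 7 had a higher mean in Dnmt3a-/- CMP and 6 in Dnmt3a-/- GMP, with differences from 0.06 to 2.44 and from -0.46 to 2.37. Leaving out single arrays ended the call in CMP without Dnmt3a-/- replicate 2 (1.09, adjusted p = 0.0621) or 3 (1.24, adjusted p = 0.065), and in GMP without Dnmt3a-/- replicate 2 (1.08, adjusted p = 0.0681) or 3 (1.04, adjusted p = 0.0566). The limma adjusted p over all alternatives lay between 0.00342 and 0.117 in CMP and between 0.00328 and 0.147 in GMP, the highest of both with the Y-linked level as a covariate. The difference was then 1.14 in CMP and 1.03 in GMP. The wild-type arrays with low Y-linked levels had Cryab at 5.51 (CMP replicate 3) and 5.66 (GMP replicate 4), under all Dnmt3a-/- arrays. Every Dnmt3a-/- array without PR had low Y-linked levels, so sex and loss of Dnmt3a cannot be fully told apart here. The cause of the Cryab difference was not tested. Markers of several other cell types were also higher in Dnmt3a-/- cells, and others were lower. The 8 mature monocyte markers (the dimmest, Mrc1, at 3.76) averaged 6.41 to 6.56 on Dnmt3a-/- GMP, against 6.66 to 6.74 on wild-type GMP. On CMP they averaged 5.78 to 5.97 in Dnmt3a-/-, against 6.13 to 6.41 in wild type. The 7 measured CMP and GMP sort and identity genes averaged 8.32 to 8.47 on Dnmt3a-/- CMP, against 8.46 to 8.96 on wild-type CMP. On GMP they averaged 9.34 to 9.46, against 9.17 to 9.29. Dendritic cell markers (6 of 6 measured, the dimmest, Itgax, at 4.48) averaged 6.66 to 6.92 on Dnmt3a-/- GMP, against 4.88 to 5.52 on wild-type GMP. On CMP they averaged 8.35 to 8.99 in Dnmt3a-/-, against 6.65 to 7.12 in wild type. Megakaryocyte markers (6 of 6 measured, the dimmest, Vwf, at 5.25) averaged 6.27 to 6.80 on Dnmt3a-/- GMP, against 5.14 to 6.12 on wild-type GMP, and 7.999 to 8.34 on Dnmt3a-/- CMP, against 6.39 to 6.80 on wild-type CMP. The 8 neutrophil markers averaged 9.88 to 11.15 on Dnmt3a-/- GMP, against 8.91 to 9.56 on wild-type GMP, and 10.05 to 11.49 on Dnmt3a-/- CMP, against 9.20 to 9.27 on wild-type CMP. The 5 basophil and mast cell markers (the dimmest, Fcer1a, at 5.20) averaged 8.53 to 9.42 on Dnmt3a-/- GMP, against 6.63 to 7.54 on wild-type GMP. Their CMP groups overlapped, with 6.02 to 7.24 in Dnmt3a-/-, against 5.62 to 6.32 in wild type. By limma, 4 of 6 dendritic, 4 of 6 megakaryocyte and 2 of 8 neutrophil markers were called higher in CMP (1.28% of all genes called in either direction). In GMP it was 3 of 6, 2 of 6 and 3 of 8 (1.33% of all genes), and 0 of these dendritic, megakaryocyte and neutrophil markers were called lower. Calls among the monocyte, basophil and mast cell, and sort and identity genes are not given here. The part of all these markers in the level of Cryab was not tested.

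Hsph1, a large HSP70-related protein that exchanges the nucleotide of HSP70, was lower in Dnmt3a-/- cells on the mean of both populations. It had 7.05, 7.28 and 6.50 on Dnmt3a-/- GMP, against 7.27, 7.88, 7.46 and 7.72 on wild-type GMP. In CMP it had 7.22, 7.38 and 6.48 in Dnmt3a-/-, against 7.82, 7.65 and 7.85 in wild type. The CMP groups did not overlap, whereas Dnmt3a-/- GMP replicate 2 lay just above the lowest wild-type GMP array. The mean of both populations fell by 0.69 ± 0.17 (SE; limma adjusted p = 0.0361), with 18 of 19 probe sets lower in each population. The call was lost in 11 of 22 alternatives (adjusted p between 0.0259 and 0.187), 8 of them with 1 array left out: wild-type CMP replicate 1, 2 or 3, wild-type GMP replicate 4, or replicate 1 or 3 of either Dnmt3a-/- group. The difference without them lay between -0.74 and -0.56.

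Hspa1a, the inducible HSP70, went against the immediate early genes in wild-type cells. It had 5.11, 4.36 and 5.19 on Dnmt3a-/- GMP, against 5.52, 5.17, 7.23 and 7.15 on wild-type GMP. In CMP it had 5.27, 6.15 and 5.83 in Dnmt3a-/-, against 5.77, 7.44 and 6.38 in wild type. The wild-type arrays with high immediate early levels were the ones low in Hspa1a. On PR+/- Dnmt3a-/- GMP it had 5.01, 5.83, 4.13 and 4.29, against 3.89 and 4.43 on PR+/- GMP, and here the immediate early-high pair was also higher in Hspa1a. Of its 3 own probe sets 2 carried these differences, and the other lay between 5.40 and 7.10 on all arrays.

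The difference of Hspa1a between Dnmt3a-/- and wild-type GMP was -1.38 ± 0.51 (SE; limma adjusted p = 0.187) and that between PR+/- and wild-type GMP -2.11 ± 0.59 (limma adjusted p = 0.0722). The second was past the threshold in 7 of 14 alternatives (adjusted p between 0.0114 and 0.498), among them without wild-type GMP replicate 2 (-2.48, adjusted p = 0.0372) and without both wild-type GMP arrays under 22000 (-3.03 ± 0.48, limma adjusted p = 0.014). In that last fit Hspa1a was the 1 member called (1.38% of all genes). The arrays left out were the lowest of wild-type GMP in Hspa1a, with 5.52 and 5.17 against 7.23 and 7.15. The larger fall in these fits thus follows in part from which arrays were left out. Signal from the near-identical copy Hspa1b may reach the probes of Hspa1a and cannot be told apart here, and 3 further probe sets that carry both Hspa1a and Hspa1l were not used.

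**Figure D5:**
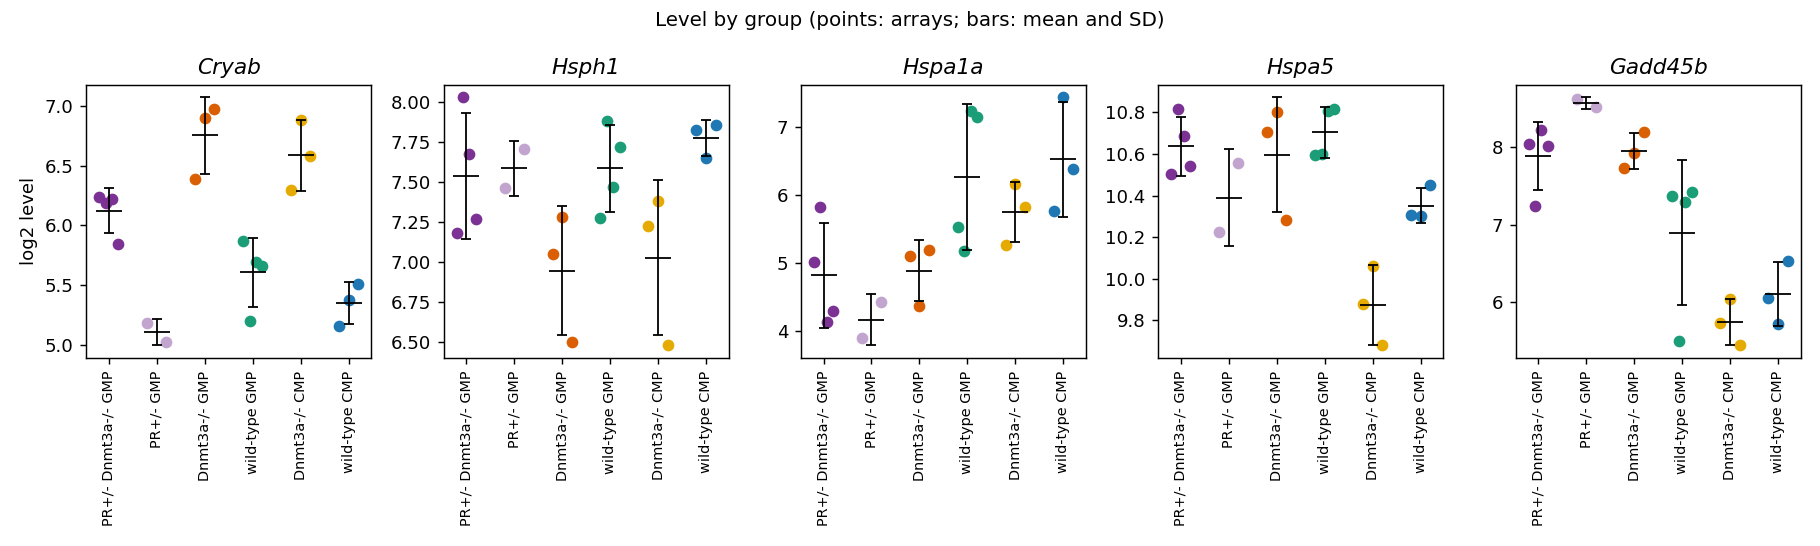
Log2 level of Cryab, Hsph1, Hspa1a, Hspa5 and Gadd45b on each array (points) by group, with the group mean and SD (horizontal line and bar). All Cryab points of PR+/- Dnmt3a-/- GMP lie above both PR+/- points, and those of Dnmt3a-/- cells above the wild-type points of the same population, while Gadd45b and Hspa5 are higher in GMP than in CMP of Dnmt3a-/- mice.

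In cells that carry PR, the members were compared between PR+/- Dnmt3a-/- and PR+/- GMP. None of the 31 members, and none of all 15781 genes (0% called), had a limma adjusted p under 0.05, while 2 members and 1256 genes (7.96%) had an unadjusted p under it. Cryab had 6.24, 6.19, 6.22 and 5.84 on PR+/- Dnmt3a-/- GMP, against 5.18 and 5.02 on PR+/- GMP, groups that did not overlap, with a difference of 1.02 ± 0.18 (SE; limma adjusted p = 0.478). The median difference over the 25 immediate early genes was 0.89, and -0.035 over all genes. It was -0.026 over the immediate early genes with PR+/- Dnmt3a-/- replicates 1 and 2 left out. Fos turned with it: the difference was 1.57 ± 1.36 (SE) with all arrays (limma adjusted p = 0.744) and -0.55 ± 0.32 without that pair (limma adjusted p = 0.697).

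The other contrasts with PR gave no call among the members. Between PR+/- and wild-type GMP 0 of 31 were called by limma (3.07% of all genes), and 4 members had an unadjusted p under 0.05, against 17.4% of all genes. Between PR+/- Dnmt3a-/- and Dnmt3a-/- GMP it was 0 of 31 (1.24% of all genes), also with 4 at an unadjusted p under 0.05, against 15.1% of all genes. The Dnmt3a difference in PR+/- GMP set against that in GMP without PR gave 0 of 31 (0.0317% of all genes) and 3 unadjusted (2209 of all 15781 genes), and its median over the immediate early genes was 0.81, against -0.56 without the 4 GMP arrays with high immediate early levels. The Dnmt3a difference in GMP set against that in CMP gave 0 of 31 (0% of all genes) and 2 unadjusted (6.86% of all genes). Contrasts that use the wild-type GMP arrays share them, so their values are not independent of each other.

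Between the progenitor stages, Gadd45b was the immediate early member with the clearest difference. It encodes a small stress sensor that binds the MAP kinase kinase kinase MEKK4. Its levels were 7.74, 7.92 and 8.20 on Dnmt3a-/- GMP, against 5.73, 6.04 and 5.44 on Dnmt3a-/- CMP. They were 7.37, 5.50, 7.30 and 7.42 on wild-type GMP, against 6.05, 5.71 and 6.53 on wild-type CMP. On PR+/- Dnmt3a-/- GMP they were 8.05, 7.24, 8.23 and 8.02, against 8.63 and 8.52 on PR+/- GMP. Apart from wild-type GMP replicate 2, every GMP array lay above every CMP array, and in that array 6 of 7 probe sets were the lowest of the group. Gadd45b did not follow the immediate early split in any group.

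Gadd45b rose in Dnmt3a-/- GMP against Dnmt3a-/- CMP by 2.22 ± 0.42 (SE; 4.65-fold, limma adjusted p = 0.00382), with 7 of 7 probe sets higher, and kept its call in all 14 alternatives. Together with Hspa5 it made 2 of 31 members called (10.1% of all genes called). Between wild-type GMP and CMP it differed by 0.80 ± 0.39 (limma adjusted p = 0.340). Without wild-type GMP replicate 2 that difference was 1.27 (adjusted p = 0.00593), and with the median of its probe sets 1.42 (adjusted p = 0.0249), in a range of adjusted p from 0.00593 to 0.576. Between PR+/- and wild-type GMP it differed by 1.68 ± 0.45 (limma adjusted p = 0.0634), past the threshold in 5 of 14 alternatives (adjusted p between 0.0226 and 0.430), among them without wild-type GMP replicate 2 (1.21, adjusted p = 0.0274). Replicate 2 was the lowest wild-type GMP array in Gadd45b, at 5.50, so both results without it follow in part from its removal. The test of whether the Dnmt3a difference itself was unlike in the 2 stages gave no call for Gadd45b.

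Hspa5, the HSP70 of the endoplasmic reticulum, had 10.71, 10.80 and 10.28 on Dnmt3a-/- GMP, against 9.88, 10.06 and 9.68 on Dnmt3a-/- CMP. It had 10.60, 10.60, 10.80 and 10.82 on wild-type GMP, against 10.31, 10.30 and 10.45 on wild-type CMP. On PR+/- Dnmt3a-/- GMP it had 10.50, 10.82, 10.68 and 10.54, against 10.22 and 10.55 on PR+/- GMP. GMP lay above CMP without overlap in Dnmt3a-/- and in wild-type mice. It rose in Dnmt3a-/- GMP by 0.72 ± 0.16 (SE; limma adjusted p = 0.0098), with 11 of 11 probe sets higher. The call was lost without Dnmt3a-/- CMP replicate 3 (0.63, adjusted p = 0.0568) or Dnmt3a-/- GMP replicate 2 (0.62, adjusted p = 0.0544), in a range of adjusted p from 9.57e-05 to 0.0568. In wild type the difference was 0.35 ± 0.15 (limma adjusted p = 0.245).

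Part of the list of ER and integrated stress response genes was higher in GMP as well. Of the 18 in the list, 8 rose in Dnmt3a-/- GMP against CMP and 0 fell (10.1% of all genes called in either direction), with a median difference of 0.60, against -0.0090 over all genes. The largest were Sdf2l1 (1.45), the chaperone Hyou1 (1.42) and the disulfide isomerase Pdia6 (1.31), with limma adjusted p of 3.73e-04, 3.19e-04 and 9.53e-04. In wild-type GMP against CMP 4 rose and 0 fell (4.3% of all genes called), with a median of 0.47, against 0.035 over all genes: Pdia4 (0.93), Hyou1 (0.77), Sdf2l1 (0.77) and the transcription factor Xbp1 (0.65). Atf4, Ddit3, Trib3, Asns and Chac1 of that list were among the genes called in neither of these comparisons. In Dnmt3a-/- against wild-type CMP the list had 1 call of 18 (1.28% of all genes), Pdia6, which fell by 0.90. Of the 13 other chaperone genes linked to HSF1, 1 rose in Dnmt3a-/- GMP against CMP, Fkbp4 (0.55), a share under that 10.1%.

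Hsp90aa1, the inducible cytosolic HSP90, rests on 1 dim probe set, at percentile 12.2 of the mean levels of all genes, and its values are given with that limit. It had 4.05, 4.13, 3.66 and 4.33 on wild-type GMP, against 2.52, 1.89 and 3.34 on wild-type CMP. On Dnmt3a-/- GMP it had 2.74, 3.59 and 3.24, against 1.94, 1.45 and 2.72 on Dnmt3a-/- CMP. On PR+/- Dnmt3a-/- GMP it had 3.01, 3.99, 3.60 and 2.69, against 3.99 and 4.07 on PR+/- GMP. The wild-type groups did not overlap. Hsp90aa1 was the 1 of 31 members called between wild-type GMP and CMP (4.3% of all genes called), with a difference of 1.46 ± 0.35 (SE; limma adjusted p = 0.0311). It lost the call in 7 of 15 alternatives (adjusted p between 0.00948 and 0.268), 5 of them with 1 array left out, wild-type CMP replicate 1 or 2 or wild-type GMP replicate 1, 2 or 4, when the difference lay between 1.11 and 1.46. With the runs of title numbers as a block, 7 of 31 members were called (6.65% of all genes). Hsp90aa1 was higher in GMP (1.46). Btg2, Egr3, Ier2, Ier3, Jun and Ppp1r15a were lower in GMP, with differences from -1.41 to -0.76. That block separates the wild-type arrays with title numbers under 22000, which stood apart in the immediate early genes.

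Over all 6 groups, limma's moderated F test called 5 of 31 members, Cryab, Gadd45b, Hspa5, Hsp90aa1 and Hspa1a, and 19.7% of all genes. Their adjusted p-values were 4.54e-05, 2.70e-04, 0.00461, 0.00368 and 0.0258, and those of the other immediate early genes began at 0.0722 (Myc). With the 5 arrays of high immediate early levels left out, an alternative chosen after seeing the data, 21 of 31 were called (25.1% of all genes), Fos, Jun, Btg2 and Dusp1 among them. Group means of the remaining arrays put Fos highest in CMP and GMP of Dnmt3a-/- mice, but the left-out arrays were chosen by these very genes, so the count is a description. Dnajb1, an HSP40 co-chaperone, passed in neither, with 8.71 on wild-type CMP replicate 1 and 6.41 to 7.86 on all other arrays.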

How the data were processed

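The deposited values were linear intensities, 1 per exon-level probe set and array, between 1.34 and 16208 over 194293 probe sets. The names RMA, Partek and mm9 come from the submitters' processing notes, where neither role nor version is stated, and 20 ng of total RNA was used per sample, per the labels' protocols. Intensities as deposited by the authors were taken to log2 with no further normalization and no pseudocount. Of the probe sets 179496 carried 1 gene symbol, 1328 several and 13469 none. Symbols were brought up to date through the RefSeq gene table (GRCm38.p6, names only): 13727 were current, 2039 were replaced through a synonym and 37 were kept. A gene's level is the mean log2 of its own probe sets, with a median of 9 probe sets per gene.

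Differences were tested with limma 3.58.1 in R 4.3.3 (lmFit, eBayes), two-sided, with Benjamini-Hochberg adjustment over all 15781 genes and a threshold of 0.05. The 13 wild-type and Dnmt3a-/- arrays shared 1 fit, the 6 arrays with PR another, and contrasts across PR used the 13 GMP arrays. The fit was tested on simulated data. The members and lists were chosen with earlier results of these data known, so no count over a list carries a p-value. All 35 members are named where measured. Values per array are given for the 2 members of highest within-group SD in each role class and for each called member, and up to 3 of the largest called changes are named for the other lists. Whether replicates are separate animals is not stated in the labels, and the p-values cover array-to-array spread alone, which may be technical, and the number of arrays limits the precision. Alternatives were the median of probe sets, brighter probe sets, dim genes left out, only the groups compared, all arrays in 1 fit, array weights, title numbers as a block or left out, a Y-linked covariate, the replicate block and single arrays left out. Further ones were arrays centred on their median and, in contrasts with PR and over all groups, arrays of high immediate early levels left out.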

Additional observations from a re-analysis of the deposited data

Results flagged for a closer look

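In groups of 4 arrays, 1 array stood far from the other 3 for 3 member values, by Dixon's test at the 95% level, which by chance picks out about 1 in 20 groups. Atf3 was high on wild-type GMP replicate 1, at 7.56. Gadd45b was low on wild-type GMP replicate 2, at 5.50. Cryab was low on PR+/- Dnmt3a-/- replicate 4, at 5.84. In wild-type GMP this was 2 of 31 members, against 5.72% of all genes, and in PR+/- Dnmt3a-/- GMP 1 of 31, against 5.29%. The cause was not tested.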

How the results depend on the processing

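The number of members called moved with the arrays used. Counts in brackets are genes called in the same setting, of all 15781, or of 11836 without dim genes. In Dnmt3a-/- against wild-type CMP it was 5 with array weights (1064) and 8 without the wild-type title numbers under 22000 (450). With the Y-linked covariate it was 0 (63), and with single arrays left out 0 to 1. In GMP it was 2 with array weights (1734) and 5 without those title numbers (223). With only the groups compared (75) or the Y-linked covariate (48) it was 0, and with single arrays left out 0 to 1. On the mean of both it was 1 with the median of probe sets (493), 7 with array weights (3248) and 17 without those title numbers (1261). With the Y-linked covariate it was 0 (139), and with single arrays left out 1 to 3. For wild-type GMP against CMP it was 2 with the median of probe sets (380) and 7 with title number runs as a block (1049). Without dim genes (817), with only the groups compared (258) or without those title numbers (379) it was 0. With single arrays left out it was 0 to 1. For Dnmt3a-/- GMP against CMP it was 6 with only the groups compared (1961) and 7 with array weights (3853). With adjacent title numbers as a random block it was 3 (2060), and with single arrays left out 1 to 2. For PR+/- against wild-type GMP it was 1 with the median of probe sets (262) or without those title numbers (218). With brighter probe sets (348), without dim genes (671), with all 19 arrays in 1 fit (850) or with array weights (1045) it was 2. With single arrays left out it was 0 to 2. For PR+/- Dnmt3a-/- against Dnmt3a-/- GMP it was 1 with array weights (935). Members above the 90th percentile of spread numbered 4 without the 5 arrays of high immediate early levels and 21 to 25 with single arrays left out, and the F test called 21 without the 5. The difference of Fos in CMP turned to 0.60 with array weights, 0.86 without wild-type CMP replicate 1 or without those title numbers and 1.07 with the Y-linked covariate, and ranged from -0.58 to 0.86 with single arrays left out. In GMP it turned to 0.15 with array weights, 0.70 without those title numbers and 0.83 with the Y-linked covariate, and ranged from -0.82 to 0.018 (without wild-type GMP replicate 2) with single arrays left out. In PR+/- Dnmt3a-/- against PR+/- GMP it turned to -0.55 without PR+/- Dnmt3a-/- replicates 1 and 2. The cause was not tested. With the replicate block in that comparison 0 members were called and the median difference was 1.53 over all 31 members (0.86 without the block) and 2.13 over the immediate early genes (0.89 without it), and the labels do not say that the numbers mark pairs. Over all genes the counts called ranged over the alternatives from 61 to 1064 (202 as reported) in CMP, 48 to 1734 (210) in GMP, 139 to 3248 (907) on the mean, 258 to 1049 (678) for wild-type GMP against CMP, 968 to 3853 (1590) for Dnmt3a-/- GMP against CMP, 0 to 48 (0) for the stage interaction, 0 to 21 (0) for PR+/- Dnmt3a-/- against PR+/-, 43 to 1045 (484) for PR+/- against wild type, 45 to 935 (195) for PR+/- Dnmt3a-/- against Dnmt3a-/- and 4 to 40 (5) for the PR interaction.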
